A study of Danio rerio with 36 samples.

Results

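The genes described here are 5 zebrafish genes for matrix proteins of the notochord and cartilage: col2a1a, col11a1a, col11a2, col9a2 and hapln1a. They were chosen by name, with earlier results of these data known. Their values were taken from the probe sets that the platform annotation assigns to exactly 1 symbol. All 5 had such a probe set, and together they had 10 of the 15502 probe sets tested (5 of 8793 genes). Whole embryos of Danio rerio, all of the transgenic line Tg(fli1a:EGFP)y1 with a green fluorescent protein under the fli1a promoter, were kept in sealed glass vials from about 3 hours post fertilization (hpf). The medium held no addition (control) or the fuel additive methyl tert-butyl ether (MTBE) at 0.00625, 0.625 or 5 mM. Per the labels, 5 mM damages vessels and lowers vegfa, 0.625 mM is the no-adverse-effect dose, and 0.00625 mM lies far below it. Collection was at 6-somites, near 15 hpf, at 21-somites, near 24 hpf, and at Prim-5, near 30 hpf. Each of the 12 groups of stage and dose had 3 pools of 15 embryos, and each pool was hybridised to 1 one-colour array, 36 arrays in all. Exposure began before all 3 stages.

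The notochord is a rod of large vacuolated cells held under pressure by a sheath of collagen, and it is the first axial support of the fish embryo. Its sheath is built from the same type II collagen fibrils that later fill cartilage. Type XI collagen chains sit inside these fibrils and limit their width, type IX collagen decorates their surface, and link protein locks proteoglycans onto hyaluronan between them; these roles were worked out mainly in mammals and chick.

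The values are the deposited log2 levels. Array medians lay between 3.41 and 3.62, and arrays of the same group correlated at 0.984 to 0.996 over all probe sets. Replicate 1 of the controls stood apart at both earlier stages by low yolk transcripts: the mean level of 25 yolk and lipid transport genes was 5.09 against 5.99 and 6.01 in the other 6-somites controls, and 5.27 against 7.07 and 7.03 in the other 21-somites controls. No detection calls came with the table. For scale, the array's probe set for the red fluorescent protein pAsRed2, a gene not named among those of the line, read between 2.47 and 3.54. The probe set for another red protein, pDsRed1, read between 1.75 and 2.74. The probe set pd2EGFP, for a green fluorescent protein, read between 2.27 and 3.26, no higher than pAsRed2 reached, though the line carries a green fluorescent protein gene. Probe sets differ in how brightly they bind, so none of these ranges is a threshold for another gene. In RNA from whole embryos, fewer cells of a type and less RNA per cell cannot be told apart. No source states which pools shared a spawning, so p-values measure the spread between these pools.

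**Figure D1:**
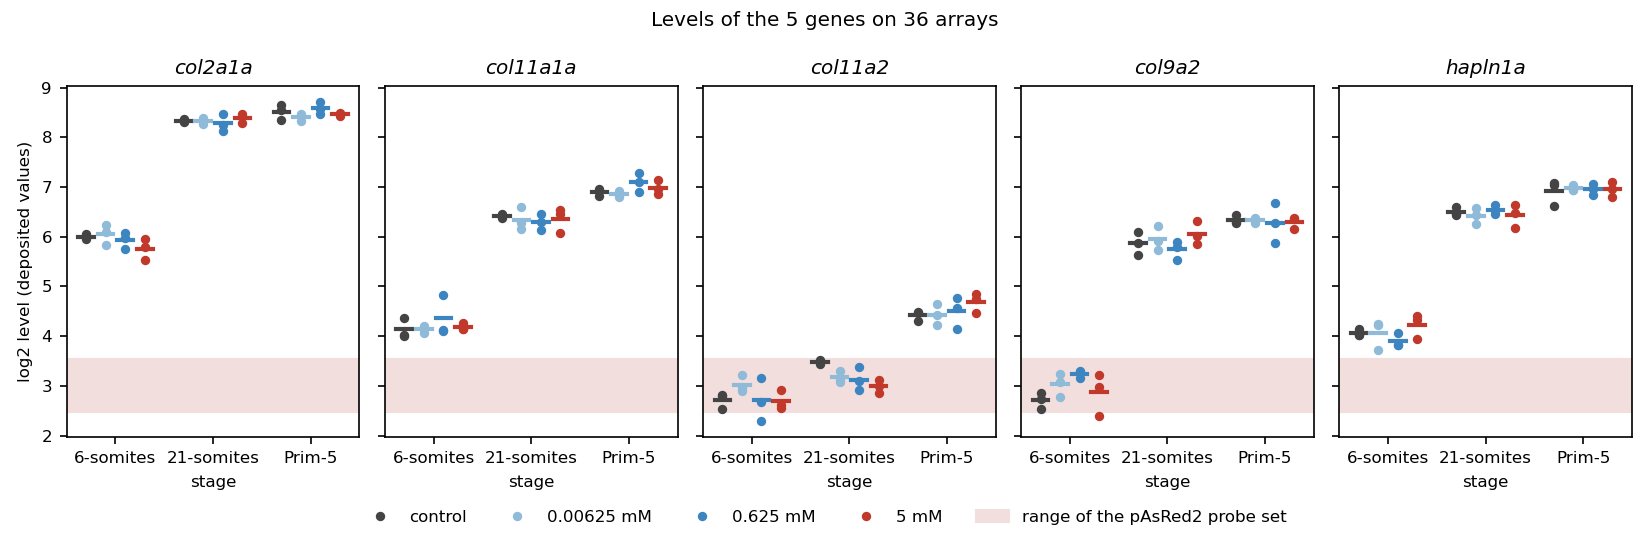
Log2 level of the brightest probe set of each gene (y axis) at 3 stages (x axis), with 1 point for each array, a bar at the mean of 3 arrays and colours for the 4 doses; the shaded band is the range of the pAsRed2 probe set, 2.47 to 3.54. Except for col11a2, the genes stand clear of their 6-somites levels by 21-somites at every dose, while col11a2 stays at or below the top of the band through 21-somites.

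All 5 genes were higher at 21-somites than at 6-somites in control embryos, by 0.76 to 3.16 on the log2 scale, and at Prim-5 all 5 stood above their 6-somites levels at every dose. A probe set was called when its limma p, adjusted by Benjamini-Hochberg over all probe sets, was under 0.05. By this rule 5 of 5 genes rose between 6-somites and 21-somites in controls, beside 11.7% of all probe sets. Between 21-somites and Prim-5, 2 of 5 rose in controls, col11a1a and col11a2, beside 4.33%. Over the whole span, Prim-5 against 6-somites, 5 of 5 rose at each dose, beside 16.8% of all probe sets in controls, 17.0% at 0.00625 mM, 17.2% at 0.625 mM and 16.9% at 5 mM. The median change of the 5 genes was 2.33 in the first interval, against -0.01 over all probe sets, and 0.46 in the second, against -0.04. Since the genes were chosen with earlier results of these data known, the shares of all probe sets are for scale. They carry no test of the 5 genes as a group. Each gene is read by its brightest probe set, whereas the shares include dim probe sets.

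The col2a1a gene (probe set Dr.3761.1.S1_at) encodes the chain of type II collagen, the main fibril of the notochord sheath. Its log2 levels at 6-somites were 5.95, 6.00 and 6.05 in controls, 5.83, 6.10 and 6.23 at 0.00625 mM, 6.07, 5.98 and 5.74 at 0.625 mM, and 5.52, 5.79 and 5.95 at 5 mM. The 21-somites levels were 8.37, 8.32 and 8.31 in controls, 8.32, 8.27 and 8.38 at 0.00625 mM, 8.12, 8.47 and 8.25 at 0.625 mM, and 8.29, 8.46 and 8.43 at 5 mM. The Prim-5 levels were 8.66, 8.55 and 8.34 in controls, 8.32, 8.43 and 8.48 at 0.00625 mM, 8.71, 8.56 and 8.48 at 0.625 mM, and 8.50, 8.44 and 8.46 at 5 mM. The 6-somites arrays lay far below all later arrays, and the 2 later stages overlapped at each dose except 0.625 mM, where they just cleared each other. Between 21-somites and 6-somites the control difference was 2.33 ± 0.12 (SE), a 5.04-fold rise (limma adjusted p = 3.34e-18). Prim-5 exceeded 21-somites by 0.18 ± 0.12 in controls, which was not called (limma adjusted p = 0.437). At no dose was this second step called, with 0.09 at 0.00625 mM, 0.30 at 0.625 mM and 0.07 at 5 mM.

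The col11a1a gene (Dr.3536.1.A1_at) encodes a type XI collagen chain. At 6-somites the log2 levels of col11a1a were 4.36, 4.01 and 4.03 in controls, 4.21, 4.15 and 4.07 at 0.00625 mM, 4.13, 4.83 and 4.11 at 0.625 mM, and 4.15, 4.26 and 4.14 at 5 mM. The 21-somites levels were 6.38, 6.46 and 6.43 in controls, 6.27, 6.16 and 6.59 at 0.00625 mM, 6.30, 6.45 and 6.14 at 0.625 mM, and 6.46, 6.54 and 6.07 at 5 mM. The Prim-5 levels were 6.83, 6.96 and 6.92 in controls, 6.80, 6.93 and 6.84 at 0.00625 mM, 7.27, 7.10 and 6.90 at 0.625 mM, and 6.96, 7.14 and 6.87 at 5 mM. The 3 stages did not overlap, whether within a dose or over all 12 arrays of each stage. It rose in both intervals at all 4 doses: the first step was 1.94 to 2.20 in exposed embryos and 2.29 ± 0.15 in controls, and the second was 0.48 ± 0.15 in controls (limma adjusted p = 0.0400) and 0.51, 0.80 and 0.63 at 0.00625, 0.625 and 5 mM. The second-step call was lost in controls on leaving out any 1 of the 6 arrays (0.45 to 0.52, limma adjusted p of 0.0692 to 0.121), or both controls low in yolk transcripts (0.46, limma adjusted p = 0.0992). It was lost on leaving out 5 of 6 arrays in turn at 0.00625 mM, 1 of 6 at 5 mM (21-somites replicate 3) and 0 of 6 at 0.625 mM.

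The col11a2 gene (DrAffx.2.30.S1_at) encodes another type XI chain, and its second step was larger than its first at each dose. At 6-somites its levels were 2.80, 2.55 and 2.82 in controls, 3.21, 2.96 and 2.89 at 0.00625 mM, 2.68, 2.30 and 3.16 at 0.625 mM, and 2.56, 2.92 and 2.62 at 5 mM. At 21-somites they were 3.53, 3.47 and 3.45 in controls, 3.08, 3.30 and 3.13 at 0.00625 mM, 3.37, 3.09 and 2.91 at 0.625 mM, and 3.12, 2.85 and 3.00 at 5 mM. At Prim-5 they were 4.46, 4.31 and 4.50 in controls, 4.64, 4.43 and 4.23 at 0.00625 mM, 4.56, 4.78 and 4.15 at 0.625 mM, and 4.84, 4.76 and 4.47 at 5 mM. Every Prim-5 array lay above every earlier array, whereas the 2 earlier stages overlapped at each exposed dose and were apart in controls. All values of the first 2 stages lay below the top of the pAsRed2 range, 3.54. Against the dimmer pDsRed1 range, which ends at 2.74, all 12 values at 21-somites (2.85 to 3.53) lay above and those at 6-somites (2.30 to 3.21) overlapped. The pd2EGFP range, 2.27 to 3.26, overlapped the 6-somites values and the exposed 21-somites values, and lay below the 21-somites controls (3.45 to 3.53). As the line carries a green fluorescent protein gene, pd2EGFP is not a probe set without a target here. The top of the pAsRed2 range came from a 6-somites array. On the 21-somites arrays pAsRed2 read 2.69 to 3.32, below the 3 controls of col11a2 and overlapping its exposed values. Since none of these ranges is a threshold for col11a2, whether its exposed 21-somites values were above background was not settled. Its first step was 0.76 ± 0.16 in controls and was called (limma adjusted p = 0.000594). In exposed embryos the first step was 0.15 at 0.00625 mM, 0.41 at 0.625 mM and 0.29 at 5 mM, and none of these was called (limma adjusted p of 0.539, 0.0691 and 0.190). At 0.625 mM the step passed without 6-somites replicate 3 (0.64, limma adjusted p = 0.00546) or without 21-somites replicate 3 (0.52, limma adjusted p = 0.0453). Its second step was called at all 4 doses, at 0.94 ± 0.16 in controls and 1.26, 1.37 and 1.70 in the same order of doses.

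The col9a2 gene (Dr.441.1.S1_at) encodes a chain of type IX collagen, which coats type II fibrils. The 6-somites log2 levels of col9a2 were 2.85, 2.54 and 2.73 in controls, 2.79, 3.08 and 3.24 at 0.00625 mM, 3.30, 3.15 and 3.28 at 0.625 mM, and 2.39, 2.99 and 3.23 at 5 mM. The 21-somites levels were 6.09, 5.88 and 5.64 in controls, 5.92, 5.73 and 6.22 at 0.00625 mM, 5.80, 5.90 and 5.53 at 0.625 mM, and 5.84, 6.31 and 6.02 at 5 mM. The Prim-5 levels were 6.44, 6.27 and 6.29 in controls, 6.29, 6.32 and 6.38 at 0.00625 mM, 6.69, 5.88 and 6.28 at 0.625 mM, and 6.38, 6.15 and 6.35 at 5 mM. Its 6-somites levels lay in or just below the pAsRed2 range and its later levels above it, with no overlap. The control rise by 21-somites was 3.16 ± 0.18, a measured 8.93-fold (limma adjusted p = 4.83e-17). Since the 6-somites level was not shown above background, this fold is no exact ratio of transcript amounts. The second step was called at 0.625 mM (0.54 ± 0.18, limma adjusted p = 0.0407), and there the arrays of the 2 stages overlapped and the call was lost without 21-somites replicate 1 or 3 or Prim-5 replicate 1 or 3 (0.34 to 0.57, limma adjusted p of 0.0723 to 0.316). It was 0.46 in controls (limma adjusted p = 0.113), 0.37 at 0.00625 mM and 0.24 at 5 mM.

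The hapln1a gene encodes the link protein that holds proteoglycans on hyaluronan. By its brightest probe set, Dr.24236.2.S1_at, the 6-somites log2 levels were 4.02, 4.03 and 4.14 in controls, 3.72, 4.23 and 4.24 at 0.00625 mM, 3.81, 3.82 and 4.06 at 0.625 mM, and 4.41, 4.32 and 3.94 at 5 mM. The 21-somites levels were 6.46, 6.61 and 6.45 in controls, 6.58, 6.44 and 6.26 at 0.00625 mM, 6.46, 6.54 and 6.64 at 0.625 mM, and 6.18, 6.47 and 6.64 at 5 mM. The Prim-5 levels were 7.09, 7.03 and 6.62 in controls, 6.94, 6.95 and 7.05 at 0.00625 mM, 7.06, 6.85 and 6.95 at 0.625 mM, and 6.79, 7.11 and 6.96 at 5 mM. Within each dose the 3 stages did not overlap. The first step was 2.20 to 2.65 in exposed embryos and 2.44 ± 0.14 in controls (limma adjusted p = 2.14e-16). The second was 0.41 in controls (limma adjusted p = 0.0787), 0.55 at 0.00625 mM (0.0111), 0.41 at 0.625 mM (0.0594) and 0.52 at 5 mM (0.0135). Leaving out 1 array of replicate 3 at either stage ended the 0.00625 mM call, and 21-somites replicate 1 or Prim-5 replicate 2 the 5 mM call (0.40 to 0.52, limma adjusted p of 0.0552 to 0.128), while without Prim-5 control replicate 3 the control step passed (0.56, limma adjusted p = 0.0218).

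The 6 probe sets of hapln1a did not read alike. The next brightest, Dr.24236.1.S1_at, rose by 2.29 ± 0.15 between the first 2 stages of controls, close to the brightest, and its second step of 0.50 passed (limma adjusted p = 0.0344). The 3 probe sets of middle brightness among the 6 rose by 1.03, 0.83 and 0.54 in the first interval, all called, from levels of 1.23 to 2.02 at 6-somites. Those levels lay below the pAsRed2 range, 2.47 to 3.54, and reached into the pDsRed1 range, 1.75 to 2.74. The last, Dr.19404.1.S1_at, stayed between 0.80 and 1.22 on all 36 arrays and had no called change between control stages. It is the dimmest, and at 5 mM it was called lower at 21-somites than at 6-somites by a difference of -0.28, a call that quantile and cyclic loess normalization each removed (limma adjusted p of 0.197 and 0.493).

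**Figure D2:**
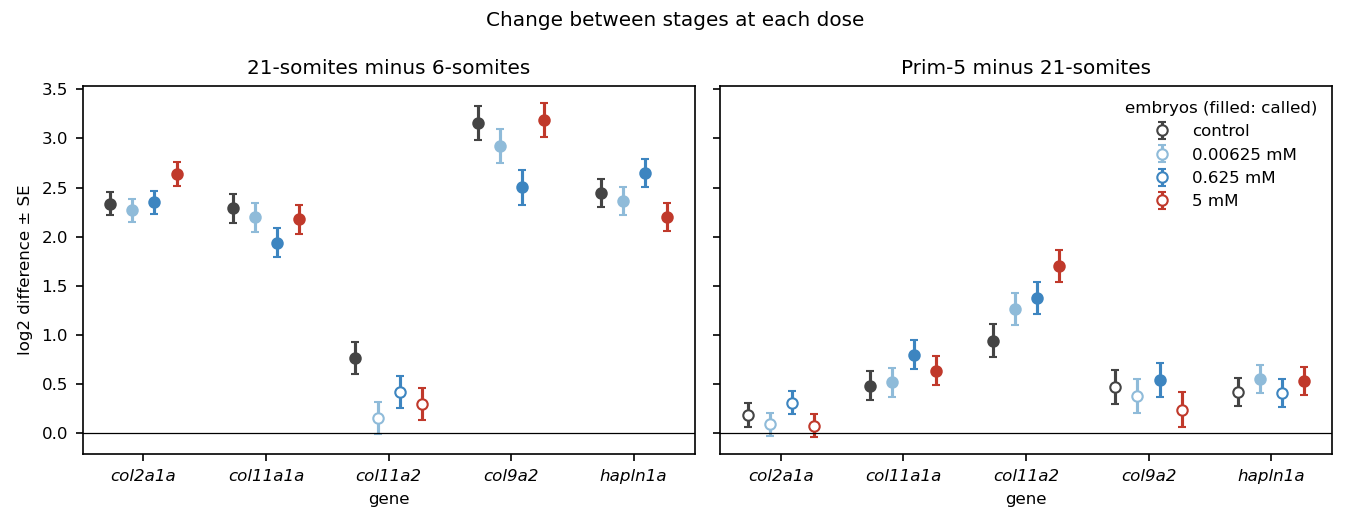
Log2 difference (y axis, with its standard error) between consecutive stages for each gene (x axis) and dose (colours), from limma over all arrays; filled points passed at adjusted p under 0.05. The first step is above 1.9 for 4 genes and at most 0.76 for col11a2, whose second step, 0.94 to 1.70, is the largest of the 5 at every dose.

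Exposed embryos showed the same counts at each dose. Between 21-somites and 6-somites, 4 of 5 genes rose at 0.00625 mM, at 0.625 mM and at 5 mM, all but col11a2, beside 11.2%, 10.8% and 12.6% of all probe sets. Between Prim-5 and 21-somites, 3 of 5 rose at each of these doses, beside 4.90%, 5.86% and 5.38%; col11a1a and col11a2 were among them each time, with hapln1a as the third at 0.00625 and 5 mM and col9a2 at 0.625 mM. A call at one dose and not at another is no test of a difference between doses.

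The share of the whole rise to Prim-5 that was present by 21-somites was lower for col11a2 than for the other 4 genes at each dose. For those 4 it was 70.9% to 97.4% on the log2 scale over the 4 doses, highest for col2a1a (88.5% to 97.4%). For col11a2 it was 44.7% in controls and 10.7%, 23.2% and 14.6% at 0.00625, 0.625 and 5 mM. On each array, the mean level of the other 4 genes minus that of col11a2 was 3.58 ± 0.26 at 21-somites and 1.50 ± 0.30 at 6-somites (SD, n = 12 each). It was 2.67 ± 0.25 at Prim-5 against 3.58 ± 0.26 at 21-somites, and the arrays of consecutive stages did not overlap in this measure. The 12 arrays of a stage pool the 4 doses, so each SD also holds differences between doses. At 21-somites the measure averaged 3.30 in controls, 3.59 at 0.00625 mM, 3.59 at 0.625 mM and 3.82 at 5 mM. The measure was chosen after the pattern of col11a2 had been seen, so it describes that pattern and carries no test, and it rests on low col11a2 levels at both earlier stages.

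Ordered by mean level, the 12 groups kept the order of the stages for col2a1a, col11a1a, col9a2 and hapln1a, with every 6-somites group below every 21-somites group and those below every Prim-5 group. Between the highest 6-somites group and the lowest 21-somites group the arrays were apart for these 4 genes. Within a stage, neighbours in the order overlapped for all 4, and between 21-somites and Prim-5 only those of col11a1a were apart. For col11a2 the order mixed the first 2 stages: the 5 mM group of 21-somites, at 2.99, stood below the 0.00625 mM group of 6-somites, at 3.02. Its 21-somites controls were apart from the groups next below and above.

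No MTBE dose gave a called change of any of the 5 genes. In the 9 comparisons of a dose with the controls of its stage, 0 of 45 tests passed in limma, 4 had an unadjusted p under 0.05, and the smallest adjusted p was 0.412. The 3 doses of a stage were set against the same controls. The background was as low: at 6-somites, 21-somites and Prim-5, 0.290%, 0.00% and 0.00% of all probe sets were called at 0.00625 mM, 0.0129%, 0.00% and 0.00% at 0.625 mM, and 0.00%, 0.00% and 0.00645% at 5 mM. At 6-somites the differences from control ran from -0.25 to 0.54, at 21-somites from -0.49 to 0.19, and at Prim-5 from -0.11 to 0.27. The 95% intervals lay within -0.49 to 0.89 at 6-somites, -0.83 to 0.55 at 21-somites and -0.41 to 0.60 at Prim-5. Averaged over the stages, the 15 differences lay between -0.10 and 0.14 and their 95% intervals within -0.29 to 0.34 (0 called in limma, 0 with unadjusted p under 0.05, background 0.00%). These averages can hide a change at 1 stage, which the wider intervals of the single stages leave room for.

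**Figure D3:**
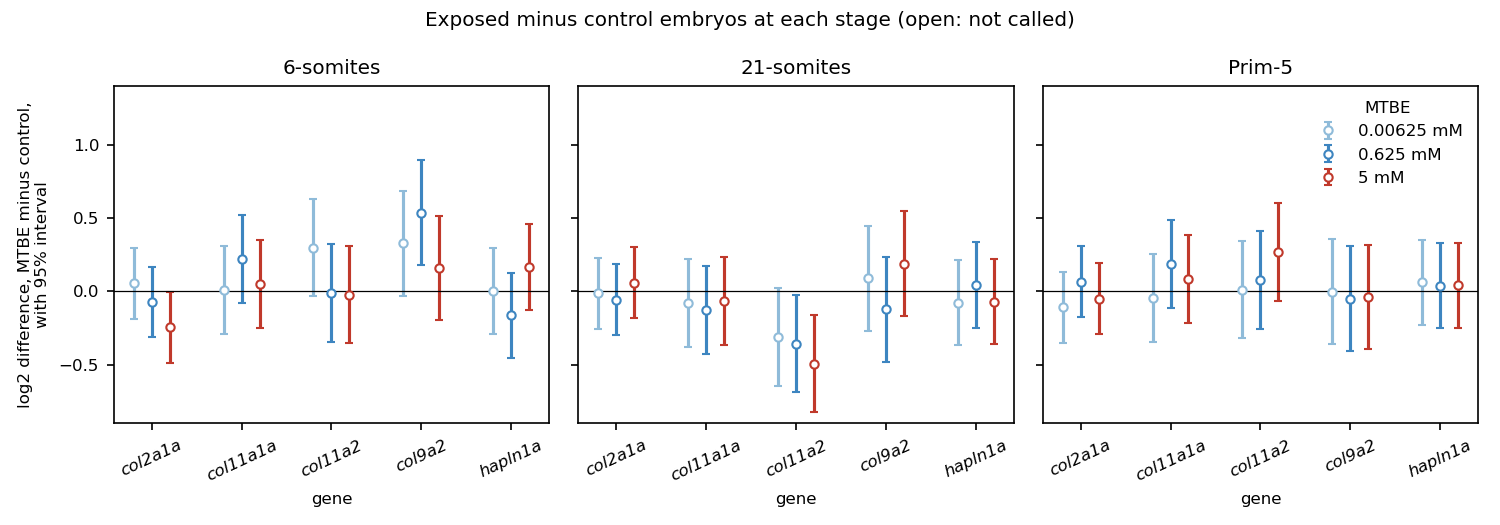
Log2 difference of each MTBE dose minus control (y axis, with 95% interval) for each gene (x axis) in 3 panels by stage. All 45 points are open, since none passed; the widest departures are col9a2 at 0.625 mM, 0.54, at 6-somites and col11a2 at 5 mM, -0.49, at 21-somites.

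In 6 of the 45 comparisons the exposed and control arrays did not overlap. This count holds both directions. Over all probe sets, 4.15% to 8.74% were apart and higher in each of the 9 comparisons. Those apart and lower were 3.24% to 7.83%, so separation of this kind was common on these arrays. At 6-somites, col2a1a at 5 mM (5.52, 5.79 and 5.95) lay just below its controls (5.95, 6.00 and 6.05), with a difference of -0.25 ± 0.12 (limma adjusted p = 0.574); 3.24% of all probe sets were apart and lower there. At the same stage col9a2 at 0.625 mM (3.30, 3.15 and 3.28) lay above its controls (2.85, 2.54 and 2.73) by 0.54 ± 0.18 (limma adjusted p = 0.466), where 5.73% of probe sets were apart and higher. The third was col11a2 at 0.00625 mM, 0.30 above control (limma adjusted p = 0.423), where 8.74% were apart and higher. The 9 arrays of col9a2 in exposed embryos averaged 0.34 above its controls at 6-somites, but overlapped them (exact two-sided permutation test, p = 0.0955). That test was chosen after the values were seen and is 1 of 15 such tests. With Benjamini-Hochberg adjustment over the 15 its permutation p was 0.716. Neither col9a2 nor col11a2 was above the pAsRed2 range at that stage, whereas col2a1a was, at 5.52 to 6.23. On the same arrays the pAsRed2 probe set itself averaged 3.26, 3.25 and 3.24 at 0.00625, 0.625 and 5 mM against 2.81 in controls. Its values at 0.625 mM (3.11 to 3.41) and 5 mM (3.08 to 3.33) lay above all controls (2.66 to 3.055). Those at 0.00625 mM overlapped the controls. The pDsRed1 probe set averaged 2.53, 2.29 and 2.38 at these doses against 2.18 in controls, and each dose overlapped the controls. The part of either probe set in the result was not tested.

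The other 3 were col11a2 at 21-somites, where all 9 exposed arrays, from 2.85 to 3.37, lay below all 3 controls, from 3.45 to 3.53. The differences from control were -0.31 ± 0.16 at 0.00625 mM, -0.36 ± 0.16 at 0.625 mM and -0.49 ± 0.16 at 5 mM, and none passed (limma adjusted p of 0.901, 0.834 and 0.593); 5.73%, 5.92% and 7.83% of all probe sets were apart and lower at these doses. As 1 group the exposed arrays were lower by a difference of -0.39 ± 0.13 (limma adjusted p = 0.422; 0.935% of all probe sets were apart and lower in this comparison, and 0.00% were called). An exact two-sided permutation test of the same arrays gave p = 0.00455, the smallest that 220 splits allow; it was chosen after the values were seen, is 1 of 15 such tests, and the next smallest p among them was 0.0955. With Benjamini-Hochberg adjustment over the 15 the value was 0.0682. Both values restate the separation of these arrays, and neither allows for a test chosen after seeing it. The difference was -0.36 (limma adjusted p of 1.00) without control replicate 1, the array low in yolk transcripts.

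Other measures were read on the same 21-somites arrays. The mean log2 level of 16 fast muscle genes was 6.34, 5.93 and 6.09 in controls, 5.77, 5.80 and 5.97 at 0.00625 mM, 5.89, 6.07 and 5.93 at 0.625 mM, and 5.69, 5.96 and 5.69 at 5 mM, so each dose overlapped the controls. The highest control, 6.34, was replicate 1, the array low in yolk transcripts. All 16 muscle genes had a difference below 0 at 5 mM, from -0.80 to -0.01, and 0 of them were called in limma, with 5 at an unadjusted p under 0.05. Over all probe sets in this comparison the median difference was -0.02, 0.00% were called and 7.5% had an unadjusted limma p under 0.05. The share of all probe sets below 0 was not computed. The 16 genes were read on the same arrays, so they are not separate observations. Their count below 0 was not redone without control replicate 1. The pAsRed2 probe set read 2.95, 3.16 and 3.32 in controls, 3.21, 3.20 and 2.89 at 0.00625 mM, 3.25, 2.95 and 3.23 at 0.625 mM, and 2.85, 2.69 and 3.18 at 5 mM. Its mean was 3.10 and 3.14 at the 2 lower doses against 3.14 in controls, where col11a2 was apart and lower, and 2.91 at 5 mM. The part of these in the col11a2 values was not tested. At Prim-5 the direction of col11a2 at 5 mM was the other way, 4.84, 4.76 and 4.47 against 4.46, 4.31 and 4.50 in controls (0.27 ± 0.16, not called). The change in its 5 mM difference between the stages, Prim-5 minus 21-somites, was 0.76 ± 0.23 and did not pass (limma adjusted p = 0.861).

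**Figure D4:**
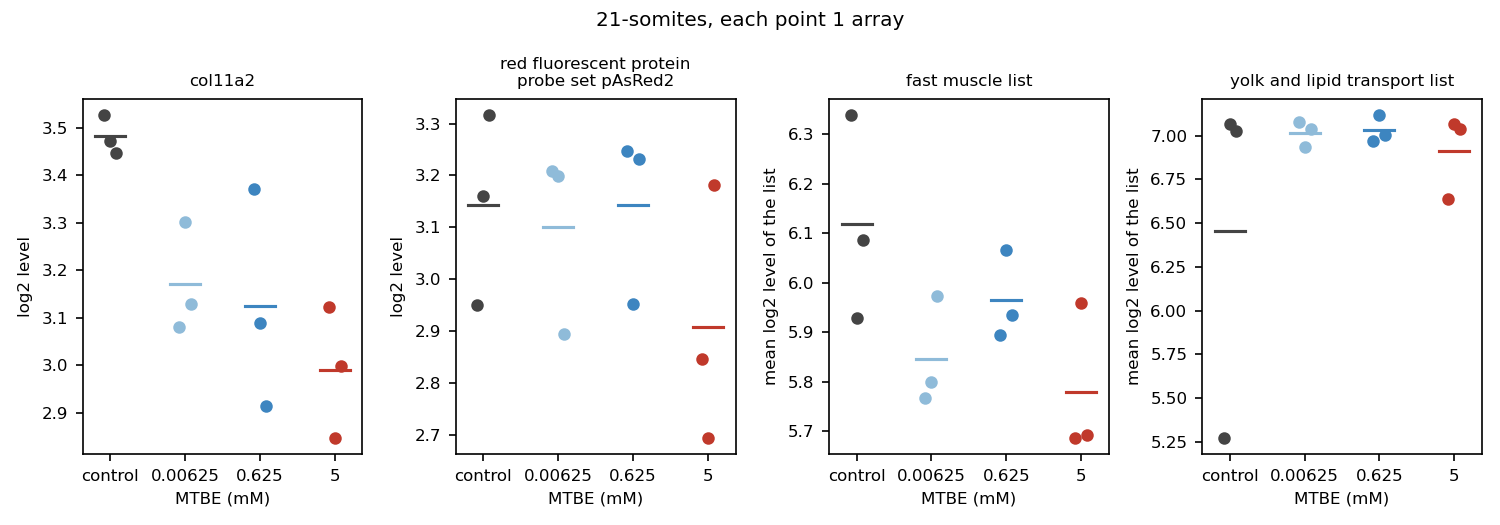
Values of the 12 arrays at 21-somites (1 point each, bar at the mean of 3) by MTBE dose (x axis, mM): log2 level of col11a2, log2 level of the pAsRed2 probe set, and mean log2 levels of the fast muscle and of the yolk and lipid transport genes (y axes with their own ranges, not starting at 0). The 9 exposed col11a2 values, 2.85 to 3.37, sit below the controls, 3.45 to 3.53, and 1 control array sits apart in yolk transcripts at 5.27.

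Further tests took the doses of a stage together, or compared dose effects between doses or stages. A moderated F test in each stage asked whether any of the 3 doses differed from control. Another asked whether the 5 mM effect differed between stages. Together these F tests gave 0 of 20 called in limma, with 3 at an unadjusted p under 0.05. Their smallest adjusted p was 0.398 (0.0516% of all probe sets called at 6-somites and 0.00% in the others). Comparing 5 mM with both lower doses gave 0 of 15 called in limma, with 1 unadjusted p under 0.05 and 0.637 as the smallest adjusted p (background 0.00%, 0.00% and 0.00645% by stage). The change of each dose's effect between pairs of stages, added after the data were seen, gave 0 of 45 called in limma and 4 at an unadjusted p under 0.05, beside 0.00% of all probe sets in all 9. Across the 6 hapln1a probe sets and 9 dose comparisons, 0 of 54 tests passed in limma and 1 had an unadjusted p under 0.05, with differences of -0.53 to 0.25. All 5 genes were above their group means on 2 of 36 arrays and all 5 below on 1. No reference share was computed, so whether they deviated together was not tested.

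Genes that surround these collagens were followed in 5 lists of 99 genes on the array. The lists too were chosen with earlier results of these data known, so shares of all probe sets beside them test no list. Each list gene is read by its brightest probe set, whereas those shares include dim probe sets. Among 17 other matrix genes of notochord and cartilage, 9 rose and 0 fell by 21-somites in controls, with a median of 0.69, and 7 rose and 0 fell by Prim-5, with a median of 0.25. In the first step 11.7% of all probe sets rose and 10.9% fell, and in the second 4.33% and 2.70%. Among the risers were thbs4b, a thrombospondin, at 3.05 ± 0.20 and the matrilin matn4 at 2.39 ± 0.21, with the type IX chain col9a1b at 2.29 ± 0.15. The second step was led by matn4 at 1.93, the versican vcanb at 1.29 and the small proteoglycan dcn (decorin) at 1.02. Here thbs4b had -0.43 (limma adjusted p = 0.224), a direction opposite to its first step that did not pass.

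Type I and type V collagen, fibrillar collagens of skin, tendon and bone, are outside this group. In the list of 14 other collagens, 5 rose and 0 fell by 21-somites, and 4 rose and 0 fell by Prim-5; the type I chains col1a1a and col1a2 rose by 4.48 ± 0.16 and 3.43 ± 0.15 and then by 1.11 and 1.37, while the type V chain col5a2a rose by 3.20 ± 0.20 and then had -0.06 (limma adjusted p = 0.919). The dim type VI chain col6a3 rose by 0.56 in the second step. The list's medians were 0.07 and 0.04, and 9 of the 14 did not pass in the first step. Beside these counts, 11.7% of all probe sets rose and 10.9% fell in the first step, and 4.33% and 2.70% in the second. Second probe sets of col1a1a and col1a2 rose too, by 3.52 and 2.63 in the first step, and the dim second one of col5a2a had 0.08.

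Of 32 genes for collagen folding, modification and export, 10 rose and 1 fell by 21-somites (median 0.18), with the collagen chaperone fkbp10b at 2.04 ± 0.15, the crosslinking oxidase loxl2b at 1.65 ± 0.13 and the procollagen processing enhancer pcolcea at 1.304 ± 0.12. The 1 that fell was the tolloid-like protease tll1 at -0.78. By Prim-5, 1 rose, pcolcea at 0.53, and 1 fell, the prolyl hydroxylase subunit p4ha1b at -0.93 (median -0.05). Of all probe sets, 11.7% rose and 10.9% fell in the first step, and 4.33% and 2.70% in the second.

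The basement membrane list, 11 genes around the notochord sheath, split: 4 rose and 4 fell by 21-somites and 1 rose and 4 fell by Prim-5 (medians 0.18 and -0.21). Shares of all probe sets were 11.7% rising and 10.9% falling in the first step, and 4.33% and 2.70% in the second. The collagen-binding gene sparc rose by 1.95 ± 0.12, with the laminin chains lama4 at 0.61 and lamb4 at 0.46, and the laminin chain lamb1a (-0.83) and the fibronectins fn1a (-0.99) and fn1b (-0.68) fell. The dimmer second probe set of lama4 had 0.16 (limma adjusted p = 0.557), and lamb4 was in the range of the dim probe sets. In the second step lamb4 rose by 0.53, while fn1b (-1.09), fn1a (-0.64) and the laminin chain lamc1 (-0.52) fell.

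Of 25 regulators of notochord and cartilage, 3 rose and 8 fell by 21-somites (median -0.13), and 0 rose and 2 fell by Prim-5 (median -0.18). Over all probe sets, 11.7% rose and 10.9% fell in the first step, and 4.33% and 2.70% in the second. The bone morphogenetic protein antagonist chrd fell by 1.83 ± 0.16 on the log2 scale, the notochord transcription factor gene noto by 1.19 ± 0.14 and sox9b by 0.80 ± 0.11. Its paralog sox9a, which encodes an activator of type II collagen transcription, rose by 0.73 ± 0.16, with the hedgehog ligand genes ihhb at 0.55 and shha at 0.34; the shha call was lost under quantile normalization (0.29, limma adjusted p = 0.0817). In the second step noto (-0.81) and the dim ihhb (-0.56) fell.

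**Figure D5:**
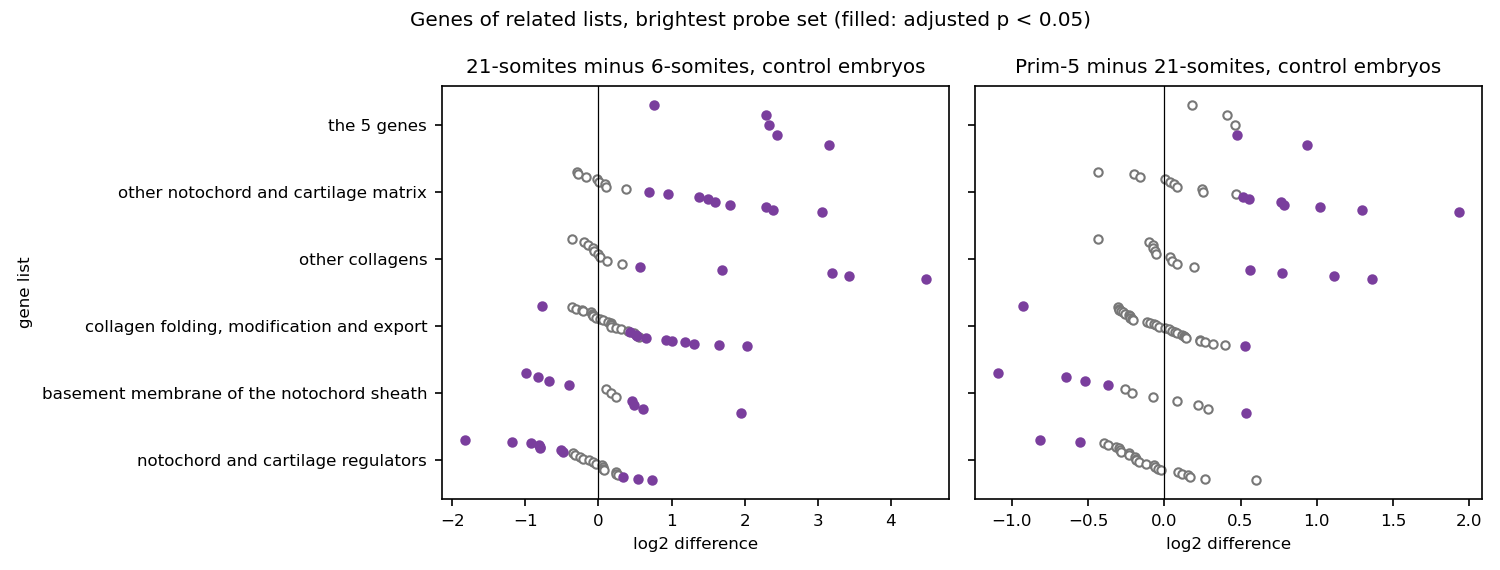
Log2 difference between stages of control embryos (x axis) for each gene of 6 lists (y axis), 1 point a gene by its brightest probe set, filled where limma's adjusted p was under 0.05. The 5 collagen and link protein genes lie between 0.76 and 3.16 in the first step, where the median of the regulators is -0.13 and that of the other collagens 0.07.

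In 5 mM embryos, 0 of these 99 genes passed against control in limma at any stage. An unadjusted p under 0.05 was found for 12 genes at 6-somites, for 11 at 21-somites and for 2 at Prim-5, or 12.1%, 11.1% and 2.0% of the lists, against 8.6%, 7.5% and 3.7% of all probe sets. These sets are unlike, since the lists hold the brightest probe set of each gene and the shares include dim ones and those with no symbol. The genes named next did not pass. At 6-somites the smallest p belonged to thbs4b at -0.47 and acanb at 0.23 among matrix genes, mia2 at 0.52 and loxl2b at 0.48 among export and modification genes, and runx2b at 0.55 and ihha at 0.36 among regulators. The other collagens had col1a2 at 0.35 and col5a2a at -0.44, and the basement membrane list had sparc at -0.26 and lama4 at 0.32. At 21-somites they were dcn at -0.33 and cthrc1a at 0.26, sec23b at 0.42 and fkbp14 at 0.33, ihhb at -0.46 and nog3 at -0.34, col28a1a at -0.28 and col14a1a at -0.31, and fn1b at 0.45 and lamb1a at 0.29. At Prim-5 they were bgnb at 0.25 and cthrc1a at 0.28, p4ha1b at 0.41 and pcolcea at -0.20, shhb at -0.23 and ihhb at 0.20, col6a3 at -0.46 and col28a2a at -0.32, and sparc at 0.32 and fbln1 at 0.32. At the lower doses 1 of the 99 passed in 1 comparison: col1a2 was higher by 0.70 ± 0.15 at 0.00625 mM at 6-somites (limma adjusted p = 0.0362), where 0.290% of all probe sets were called, and its second probe set had -0.04.

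The genes whose pattern over the 12 group means was most like each of the 5 were found by the root mean square difference of centred log2 means, a description that mostly reflects the stages. For col2a1a they were emp2 (0.07), nsd1a (0.11) and rbfox1l (0.12). For col11a1a they were col9a1b (0.10), ttn.2 (0.11) and sparc (0.13), and for hapln1a col9a1b (0.12), cav1 (0.12) and svila (0.14). For col9a2 they were tnnt2a (0.14), emp2 by another probe set (0.17) and nexn (0.18), and for col11a2 they were otpb (0.12), pgam2 (0.15) and trim55b (0.16). Among themselves, col2a1a, col11a1a, col9a2 and hapln1a differed by 0.17 to 0.36, closest between col11a1a and hapln1a, while col11a2 differed from the other 4 by 0.73 to 1.07.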

How the data were processed

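Per the labels' protocols, total RNA from pools of 15 whole embryos was purified on RNeasy columns and amplified (NuGEN WT-Ovation Pico) before biotin labelling. The deposited table holds log2 values, a unit read from their range (0.599 to 13.24); how the authors normalized them is not given in the sources used here. Scanner files and scan dates were not analysed here. The 115 control probe sets were left out. In R 4.3.3, limma 3.58.1 fitted 12 group means to all 36 arrays with eBayes (two-sided, Benjamini-Hochberg over 15502 probe sets). Errors are SE of differences or SD. The number of arrays limits the precision. Lists used each gene's brightest probe set. Named were the 5 genes throughout, up to 3 list genes with the smallest p among those called each way between control stages, the 2 with the smallest p at 5 mM, and the 3 most alike. The method was also run on simulated data with planted changes and independent noise. Such data cannot show how it behaves with shared spawnings or with the arrays low in yolk transcripts. The genes and lists were chosen with earlier results of these data known. No source says that replicate numbers pair samples, and the main fit did not treat them as pairs. Deviations of same-numbered arrays had a median correlation of 0.022, against -0.003 for arrays with different numbers. These values do not settle whether same-numbered pools shared a spawning.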

Additional observations from a re-analysis of the deposited data

How the results depend on the processing

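Besides leaving out single arrays, 9 settings were tried, 2 of them normalizations. No direction of a called value changed: of 1225 called values recomputed, 53 lost the call and 0 reversed, and of 5600 uncalled values 31 gained one. All 612 counts of genes called in comparisons of doses, or of dose effects between stages, stayed at 0. Between Prim-5 and 21-somites, the count of 3 genes that rose at 0.625 mM became 5 with quantile normalization, cyclic loess, 50 added on the linear scale and array weights. The control count of 2 became 4 with cyclic loess and array weights, and 1 when dimmer probe sets, those under the median, were left out, where col11a2 was not tested, and without both controls low in yolk transcripts. Leaving out 1 array gave 1 to 2 genes in controls and 1 to 2 at 0.00625 mM, 1 being without Prim-5 replicate 3. The cause was not tested. Fitting only the arrays compared called 1966 probe sets in all against 3505 between 21-somites and 6-somites of controls, and 578 against 1091 between Prim-5 and 21-somites. In the second interval the same setting raised the totals to 1556 against 1122 at 0.00625 mM, 2312 against 1753 at 0.625 mM and 1525 against 1445 at 5 mM. Array weights called 2872 against 1753 in the second interval at 0.625 mM and 2048 against 1122 at 0.00625 mM. Restricting to brighter probe sets, which tests fewer, called 2841 against 4287 in the first interval at 5 mM, and over the whole span 4087 against 6187 at 5 mM, 4100 against 6206 at 0.625 mM and 3927 against 6261 at 0.00625 mM. Leaving out 1 array lowered the second-interval total at 0.625 mM to as few as 1061, and at 0.00625 mM to as few as 726. With the replicate block, the control rise of col11a2 by 21-somites was 0.76 (limma adjusted p = 0.000548), and no call changed; same-numbered arrays deviated together in 43 of 198 pairs (correlation over 0.1), beside 69 of 396 pairs of arrays with different numbers. Scaling moved the median of all probe sets by under 0.1. Dim probe sets, with no detection calls, limit col11a2, early col9a2 and the dimmer hapln1a probe sets most.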
